A study of Mus musculus with 4 samples.

Results

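The osteoclast genes Ctsk, Acp5, Ocstamp, Dcstamp, Atp6v0d2, Oscar, Calcr, Nfatc1 and Itgb3 were followed through every cell class of 2 single-cell libraries from the injured mouse growth plate. These 9 of the 32285 genes in each count table were chosen by name, as genes of bone-resorbing cells, and not by their values. The study asked how sensory nerves take part in the response to injury of the physis, the growth cartilage of a long bone, and set mice given the compound 1NMPP1 against mice given vehicle (VEH). Mice of both groups carried the same engineered allele, through which 1NMPP1 can inhibit a receptor kinase that sensory neurons use. The 1NMPP1 mice were injected intraperitoneally with 17 µg of the compound per g of body weight 48 h and again 2 h before surgery, and then drank water with 40 µM of it, whereas the VEH mice received a vehicle that contained DMSO. At 7 days after injury the end of the femur around the growth plate was dissected and digested with collagenase, its cells were passed through a 40-µm filter, and they were read on the 10x Genomics platform, which counts each captured RNA molecule once as a UMI. There is 1 library per group, and the labels give neither the number of animals in it nor their strain, sex or age. No difference below has a replicate check or a test, and every interval in brackets is a 95% interval for counting error only.

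Osteoclasts are large cells with several nuclei that dissolve bone and calcified cartilage. They arise when precursors of the monocyte and macrophage line, kept alive by the growth factor M-CSF, receive the cytokine RANKL and fuse. RANKL and co-stimulation through immunoreceptors raise the transcription factor NFATc1, which acts with PU.1, MITF and AP-1 on genes for fusion, attachment to bone, acid secretion and collagen breakdown.

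Promoter windows of the RefSeq table (GRCm38.p6) were read for 4 of the members, in 7 windows. Nfatc1 was left out of this reading, and its windows and position are not reported here. Windows with at least 2 matches to motifs of the factors named above are printed, 1 each of Ctsk, Acp5 and Oscar. Each runs 5′ to 3′ on the gene's own strand over the 250 bases before an annotated start. Capitals mark matches, on either strand, to the NFAT core GGAAA, the PU.1 core GAGGAA, and the E-box CACGTG or CATGTG that MITF and its relatives recognise. The Ctsk window is chr3:95498960-95499209 on the plus strand, the Acp5 window, of the third of 3 starts, is chr9:22130599-22130848 on the minus strand, and the Oscar window is chr7:3616158-3616407 on the minus strand.
Ctsk: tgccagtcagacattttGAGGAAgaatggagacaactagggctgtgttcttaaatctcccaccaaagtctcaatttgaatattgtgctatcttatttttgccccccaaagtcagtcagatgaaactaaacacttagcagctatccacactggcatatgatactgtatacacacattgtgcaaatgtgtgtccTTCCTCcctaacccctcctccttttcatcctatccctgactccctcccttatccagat
Acp5: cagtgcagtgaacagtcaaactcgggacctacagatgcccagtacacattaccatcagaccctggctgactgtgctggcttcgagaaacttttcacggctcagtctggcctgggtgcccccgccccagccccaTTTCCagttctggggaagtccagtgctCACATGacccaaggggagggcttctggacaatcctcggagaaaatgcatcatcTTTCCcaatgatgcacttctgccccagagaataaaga
Oscar: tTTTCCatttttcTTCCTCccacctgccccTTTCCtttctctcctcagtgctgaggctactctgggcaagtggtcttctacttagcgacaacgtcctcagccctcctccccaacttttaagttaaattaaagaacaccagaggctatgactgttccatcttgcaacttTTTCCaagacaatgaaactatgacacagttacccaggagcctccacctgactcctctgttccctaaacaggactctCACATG
The Ctsk window holds 2 PU.1 cores and no NFAT core, the Acp5 window 2 NFAT cores and 1 E-box, and the Oscar window 3 NFAT cores, 1 PU.1 core and 1 E-box. Both other Acp5 windows and 1 of the 2 Calcr windows held 1 NFAT core each. Such short motifs are common. Over all 32851 windows of this length in the table, 55.6% held GGAAA, 23.3% GAGGAA and 17.6% the E-box. The AP-1 site TGANTCA, held by 6.75% of all windows, was in none of the 7 member windows. A match is a match of letters and was not tested as a binding site.

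In the GENCODE M21 annotation of GRCm38 Ctsk spans chr3:95499256-95509362, Acp5 chr9:22126727-22135711, Ocstamp chr2:165393760-165400405, Dcstamp chr15:39745930-39760938, Atp6v0d2 chr4:19876841-19922605, Oscar chr7:3609813-3616157, Calcr chr6:3685680-3764714 and Itgb3 chr11:104608000-104670476. Acp5 shares 137 exon bases with the opposite-strand gene 6530413G14Rik, which itself had 46 UMIs in the 1NMPP1 library and 35 in the VEH library. No label or header states whether counting used the strand, so reads of Acp5 and of that partner cannot be told apart over those bases. Nfatc1 overlaps the opposite-strand gene AC123818.1, which had 42 UMIs in the 1NMPP1 library and 26 in the VEH library, without sharing exon bases.

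The 1NMPP1 library held 11807 barcodes and 139703885 UMIs, and the VEH library 9560 barcodes and 102693014 UMIs. After filtering, 10519 cells with a median of 7067 UMIs were kept from 1NMPP1 and 8649 cells with a median of 6483 UMIs from VEH. The tissue label reads growth plate, but most kept cells were blood cells: neutrophil-like cells made up 54.0% in 1NMPP1 and 51.1% in VEH, and chondrocyte-like cells 0.257% in 1NMPP1 and 0.728% in VEH. A male call (RNA of Y-linked genes without Xist) was made for 24.9% of cells in 1NMPP1 and 49.7% in VEH, and a female call (the converse) for 39.1% in 1NMPP1 and 15.9% in VEH. The libraries therefore mix the sexes unequally, and where no value by sex is given, sex and treatment cannot be told apart. The libraries shared 40 barcodes, of which 29 were left after filtering, and no recomputed ratio of a member in a class moved beyond its counting interval without them. Cell classes were named from marker sets that left the 9 members out, and the members were also left out of the clustering.

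Over all kept cells, Ctsk, Ocstamp and Dcstamp had the lowest ratios of 1NMPP1 to VEH among the members. Ctsk had 1265 UMIs in 1NMPP1 cells and 2991 in VEH cells, or 10.7 CPM in 1NMPP1 and 33.4 CPM in VEH (CPM, the gene's UMIs scaled by all UMIs of the same cells), a log2 ratio of 1NMPP1 to VEH of -1.63 [-1.73 to -1.54]. Ocstamp had 35 UMIs in 1NMPP1 and 70 in VEH (log2 ratio -1.38 [-2.02 to -0.79]), and Dcstamp 64 in 1NMPP1 and 99 in VEH (-1.02 [-1.50 to -0.55]). Smaller differences in the same direction were seen for Acp5 (2451 UMIs in 1NMPP1 and 3072 in VEH, -0.72), Atp6v0d2 (356 in 1NMPP1 and 395 in VEH, -0.54), Itgb3 (1610 in 1NMPP1 and 1470 in VEH, -0.26) and Nfatc1 (6110 in 1NMPP1 and 5102 in VEH, -0.13). Of the VEH Itgb3 UMIs, 288 lay in 1 megakaryocyte-like barcode, described below, and no ratio over all cells is given without it. Chondrocyte-like cells, 27 in 1NMPP1 and 63 in VEH, held 394 Nfatc1 UMIs in 1NMPP1 and 830 in VEH. The osteoclast-like cells described next held 257 Nfatc1 UMIs in 1NMPP1 and 196 in VEH. Oscar, with 37 UMIs in 1NMPP1 and 21 in VEH, was at 0.41 [-0.39 to 1.27], and Calcr, the calcitonin receptor of mature osteoclasts, had 3 UMIs in each library, too few for a direction. The filters removed barcodes rich in these genes, as described below. Over all barcodes, of 139703885 UMIs in 1NMPP1 and 102693014 in VEH, Oscar had 40 in 1NMPP1 and 45 in VEH, the reverse order. Ctsk had 2414 in 1NMPP1 and 4251 in VEH, and Acp5 4030 in 1NMPP1 and 4900 in VEH. Ocstamp had 62 in 1NMPP1 and 81 in VEH, and Dcstamp 102 in 1NMPP1 and 124 in VEH. Atp6v0d2 had 587 in 1NMPP1 and 475 in VEH. No ratio was computed for these sums. In bulk sums such as these, fewer cells of a type and less RNA per cell cannot be told apart.

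A cluster of 14 cells, 7 in each library, held the highest levels of 7 of the members. It was called osteoclast-like from 9 other markers, all of them detected, among them Slc9b2, a sodium-proton exchanger of osteoclasts (83 UMIs in the 1NMPP1 cells and 184 in the VEH cells), the brain-type creatine kinase Ckb (142 in 1NMPP1 and 231 in VEH) and Ppargc1b, a coactivator of mitochondrial genes (67 in 1NMPP1 and 65 in VEH). Slc9b2 had 0 UMIs in the macrophage-like cells of both libraries. Macrophage markers were nearly absent: Vcam1 and Cd163 had 0 UMIs, Adgre1 had 1 in 1NMPP1 and 0 in VEH, C1qb had 11 in each, and C1qa had 0 in 1NMPP1 and 10 in VEH, while Cd68, which osteoclasts share, had 92 in 1NMPP1 and 216 in VEH. The cells made up 0.0665% [0.0268 to 0.137] of kept 1NMPP1 cells and 0.0809% [0.0325 to 0.167] of kept VEH cells, so their share did not differ beyond counting error. Without doublet removal they numbered 18 in 1NMPP1 and 9 in VEH. They were deep, with a median of 45570 UMIs in 1NMPP1 and 40068 in VEH, and 2 of the 1NMPP1 cells and 5 of the VEH cells were called male.

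**Figure D1:**
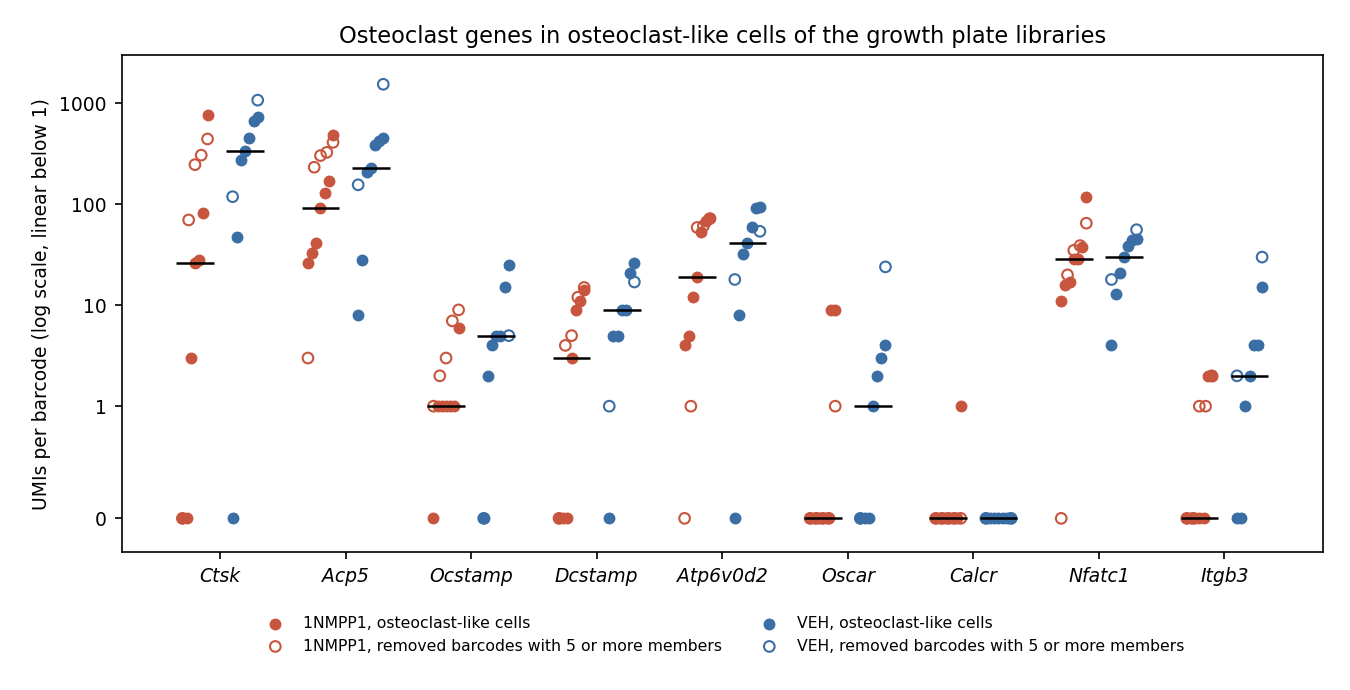
UMIs per barcode (log scale, linear below 1) of each osteoclast gene in the 7 osteoclast-like cells of 1NMPP1 (red, left of each pair) and the 7 of VEH (blue, right); filled points are kept cells, bars their medians, and open points barcodes with at least 5 of the genes that the filters removed. The 2 libraries overlap for every gene, and the medians of Ctsk are 26 in 1NMPP1 and 334 in VEH.

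Nfatc1, the transcription factor that drives osteoclast formation, was present in all 14 cells. Its UMIs per cell had a lowest, median and highest value of 11, 29 and 117 in 1NMPP1 and of 4, 30 and 45 in VEH. Summed over cells the level was 785 CPM in 1NMPP1 and 745 CPM in VEH, which lie within each other's counting interval. The richest cell held 45.5% of these UMIs in 1NMPP1 and 23.0% in VEH, and without it the level was 562 CPM in 1NMPP1 and 712 CPM in VEH. The single cells of both libraries overlapped.

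Of the receptors, Oscar, an immunoreceptor that binds collagen and co-stimulates osteoclast precursors, was detected in 2 of the 7 cells in 1NMPP1, with 9 UMIs in each, and in 4 of the 7 in VEH, with 1 to 4 UMIs. Its level was 55.0 CPM [32.6 to 86.9] in 1NMPP1 and 38.0 CPM [18.2 to 69.9] in VEH, intervals that overlap. Calcr had 1 UMI in 1 cell in 1NMPP1 and 0 in VEH. Itgb3, the beta chain of the integrin that seals osteoclasts to bone, had 4 UMIs in 2 cells in 1NMPP1 and 26 UMIs in 5 cells in VEH, 15 of them in 1 cell.

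Both fusion genes were lower in the 1NMPP1 cells by their summed levels. No share of all genes that differ likewise in these cells is given, so the members are not shown to stand out. Dcstamp, a membrane protein needed for precursors to fuse, had lowest, median and highest values of 0, 3 and 14 UMIs in 1NMPP1 and of 0, 9 and 26 in VEH, and summed to 113 CPM [79.5 to 156] in 1NMPP1 and 285 CPM [224 to 357] in VEH. Its relative Ocstamp had 0, 1 and 6 UMIs in 1NMPP1 and 0, 5 and 25 in VEH, and summed to 33.6 CPM [16.8 to 60.1] in 1NMPP1 and 213 CPM [161 to 277] in VEH. The richest cell held 54.5% of the Ocstamp UMIs in 1NMPP1 and 44.6% in VEH, and single cells of both libraries overlapped for both genes.

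The genes for acid and matrix breakdown differed in the same direction. Atp6v0d2, a subunit of the proton pump that osteoclasts use to acidify the resorption pit, had lowest, median and highest values of 4, 19 and 73 UMIs in 1NMPP1 and of 0, 41 and 93 in VEH, with 714 CPM [626 to 812] in 1NMPP1 and 1240 CPM [1110 to 1380] in VEH. Acp5, the tartrate-resistant acid phosphatase used to stain osteoclasts, had 26, 91 and 489 UMIs in 1NMPP1 and 8, 227 and 452 in VEH, with 2990 CPM [2800 to 3180] in 1NMPP1 and 6570 CPM [6270 to 6890] in VEH. Ctsk, the collagen-cleaving protease cathepsin K, had the UMIs 763, 82, 28, 26, 3, 0 and 0 in the 7 cells of 1NMPP1 and 738, 667, 452, 334, 274, 47 and 0 in the 7 cells of VEH. A count of at least 274, a cut set after these counts were seen, was thus reached by 1 kept cell of 1NMPP1 and by 5 of VEH. It leaves out the barcodes that the filters removed, described below, which held up to 444 UMIs of Ctsk in 1NMPP1 and up to 1076 in VEH. The 1NMPP1 cell with 763 UMIs held 84.6% of the Ctsk UMIs of its class, against 29.4% for the richest VEH cell. The summed level of Ctsk was 2750 CPM in 1NMPP1 and 9550 CPM in VEH, and without the richest cell of each library 555 CPM in 1NMPP1 and 7960 CPM in VEH. Cells of a library are not replicates, so these are descriptions of 2 libraries. Whether other genes differ as much in the same 7 cells a library was not tested.

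The doublet and mitochondrial filters had removed some barcodes of this kind. Among all barcodes, those with UMIs of at least 5 of the 9 genes numbered 11 in 1NMPP1 and 11 in VEH, but the filters removed 5 of them from 1NMPP1, all as doublets, and 2 from VEH, 1 as a doublet and 1 for a mitochondrial share of 22.2%. The removed 1NMPP1 barcodes held 444, 307, 247, 70 and 0 UMIs of Ctsk, and the removed VEH barcodes 1076 and 119. With them put back, a choice made after the data were seen, barcodes of at least 5 members had 4170 CPM of Ctsk in 1NMPP1 and 8320 CPM in VEH, and 4710 CPM of Acp5 in 1NMPP1 and 7680 CPM in VEH. In those barcodes Atp6v0d2 had 894 CPM [811 to 983] in 1NMPP1 and 967 CPM [878 to 1060] in VEH, intervals that overlap, unlike those of the osteoclast-like cells. The kept barcodes of at least 5 members alone, without the removed ones, overlapped as well (861 CPM [753 to 980] in 1NMPP1 and 1030 CPM [924 to 1140] in VEH). In all barcodes of at least 5 members Nfatc1 had 820 CPM in 1NMPP1 and 615 CPM in VEH. Ocstamp (67.8 CPM in 1NMPP1 and 135 CPM in VEH) and Itgb3 (16.9 CPM in 1NMPP1 and 133 CPM in VEH) were lower in 1NMPP1, as was Ctsk, with intervals that did not overlap. No share of all genes with such intervals in these barcodes is given. The barcodes were picked by UMIs of these same genes, so their levels are no independent check of the osteoclast-like class. They also mix classes, with 1 macrophage-like, 1 neutrophil-like and 1 stromal-like barcode among the kept ones of VEH. For Acp5, 1545 of its 3470 VEH UMIs lay in the VEH barcode over the mitochondrial limit. Without that barcode Acp5 was at 4710 CPM [4520 to 4910] in 1NMPP1 and 4770 CPM [4560 to 4980] in VEH. No 1NMPP1 barcode was left out beside it, and the removed one with 233 Acp5 UMIs among 1969 in all stayed in. In the kept barcodes of at least 5 members alone Acp5 was at 3550 CPM [3330 to 3780] in 1NMPP1 and 4970 CPM [4740 to 5210] in VEH. Without the VEH barcode over the mitochondrial limit, Ctsk was at 6640 CPM, Itgb3 at 74.3 CPM and Ocstamp at 139 CPM in VEH, still above the intervals of 1NMPP1. With all removed barcodes put back, the intervals of Dcstamp met, at 155 CPM [121 to 194] in 1NMPP1 and 230 CPM [188 to 279] in VEH. Without the VEH barcode over the limit, Dcstamp was at 215 CPM [173 to 266] in VEH. Oscar had 40.2 CPM [24.2 to 62.9] in 1NMPP1 and 77.4 CPM [53.9 to 108] in VEH, or 27.2 CPM [13.6 to 48.7] in VEH without that barcode. One removed 1NMPP1 barcode had 1969 UMIs in all, of which 233 were of Acp5 and 70 of Ctsk, so that the members made up 15.7% of its RNA. Whether the removed barcodes are single osteoclasts or mixtures was not tested.

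These 22 barcodes carried most of the RNA of several members. Barcodes with at least 5 members held 81.6% of all Ctsk UMIs in 1NMPP1 and 88.4% in VEH, 71.9% of Atp6v0d2 UMIs in 1NMPP1 and 92.0% in VEH, and 55.2% of Acp5 UMIs in 1NMPP1 and 70.8% in VEH. Among kept cells, 3 VEH barcodes with at least 5 members lay outside the osteoclast-like cluster. One of them was a macrophage-like cell with 26 UMIs of Ctsk, 29 of Acp5, 10 of Dcstamp and 15 of Atp6v0d2, another a neutrophil-like cell with 13 UMIs of Ctsk, 18 of Acp5 and 25 of Atp6v0d2, and the last a stromal-like cell with 13 UMIs of Ctsk.

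**Figure D2:**
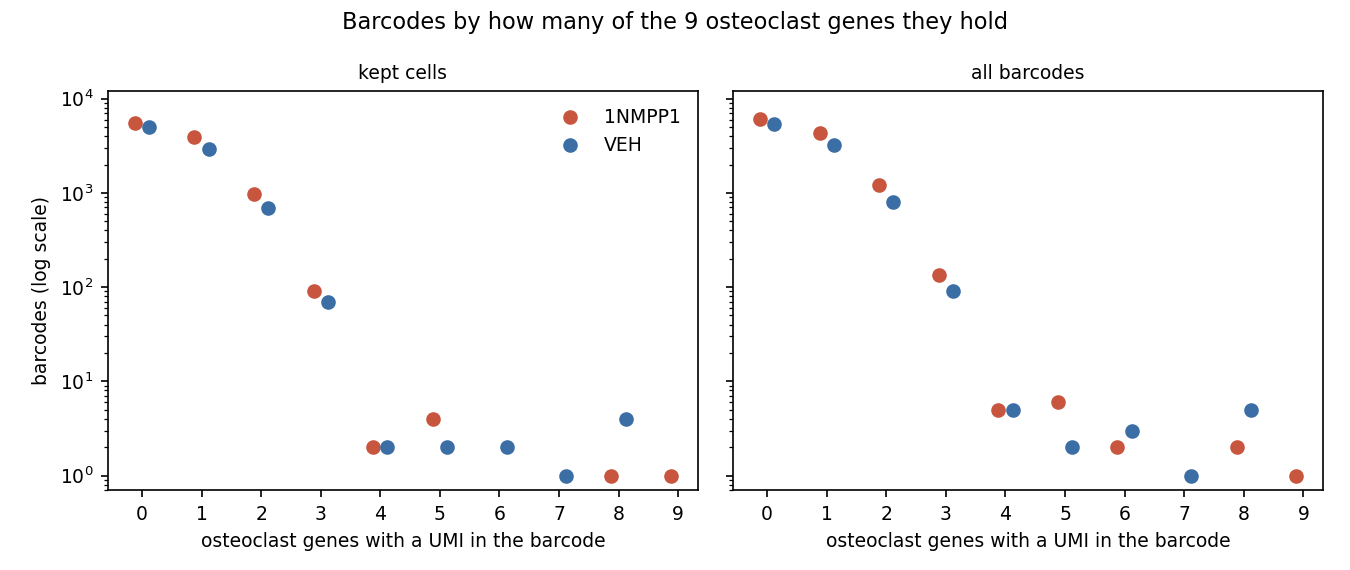
Number of barcodes (log scale) by how many of the 9 osteoclast genes have a UMI in them, in kept cells (left) and all barcodes (right), for 1NMPP1 (red) and VEH (blue). Counts fall steeply up to 4 genes and then form a tail of at least 5 genes, with 6 kept cells in 1NMPP1 and 9 in VEH, and 11 barcodes in each library before filtering.

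At a lower bar most cells with several of the genes lay outside the osteoclast-like class. Cells with UMIs of at least 3 members numbered 99 (0.941%) in 1NMPP1 and 81 (0.937%) in VEH, a log2 ratio of shares of 0.01 [-0.43 to 0.45]. Most held Nfatc1 (95 of the 99 in 1NMPP1 and 77 of the 81 in VEH), Acp5 (78 in 1NMPP1 and 65 in VEH) and Itgb3 (65 in 1NMPP1 and 48 in VEH), while Ctsk was in 42 in 1NMPP1 and 50 in VEH. They lay in many classes, with 22 B cell-like cells in 1NMPP1 and 17 in VEH, and 7 osteoclast-like cells in 1NMPP1 and 6 in VEH. Chondrocyte-like cells numbered 7 in 1NMPP1 and 4 in VEH, and stromal-like cells 5 in each. The genes highest in all these cells relative to macrophage-like and monocyte-like cells were Rab27b, Mmp16, Zfhx4, Col24a1, Dmp1, Sparcl1, Postn, Prrx1, Sfrp2 and Thbs2. They include matrix and mesenchymal genes such as Postn and Prrx1, and some rest on few cells (Sfrp2 on 2 and Dmp1 on 3 of the 180). The cells compared hold no chondrocyte-like or stromal-like class, so the list was not read as a trait of cells with several members. With Nfatc1 and Itgb3 not counted, 8 cells in 1NMPP1 and 11 in VEH were left with at least 3 members, at a log2 ratio of -0.72.

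The share of each gene's UMIs that lay in osteoclast-like cells differed widely. It was 71.3% in 1NMPP1 and 84% in VEH for Ctsk, 65.7% in 1NMPP1 and 82.3% in VEH for Atp6v0d2, 57.8% in 1NMPP1 and 75.8% in VEH for Dcstamp, 31.4% in 1NMPP1 and 80% in VEH for Ocstamp, 48.6% in 1NMPP1 and 47.6% in VEH for Oscar, and 39.9% in 1NMPP1 and 56.3% in VEH for Acp5. Nfatc1 and Itgb3 lay mostly elsewhere. Osteoclast-like cells held 4.21% of Nfatc1 UMIs in 1NMPP1 and 3.84% in VEH, and 0.248% of Itgb3 UMIs in 1NMPP1 and 1.77% in VEH.

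**Figure D3:**
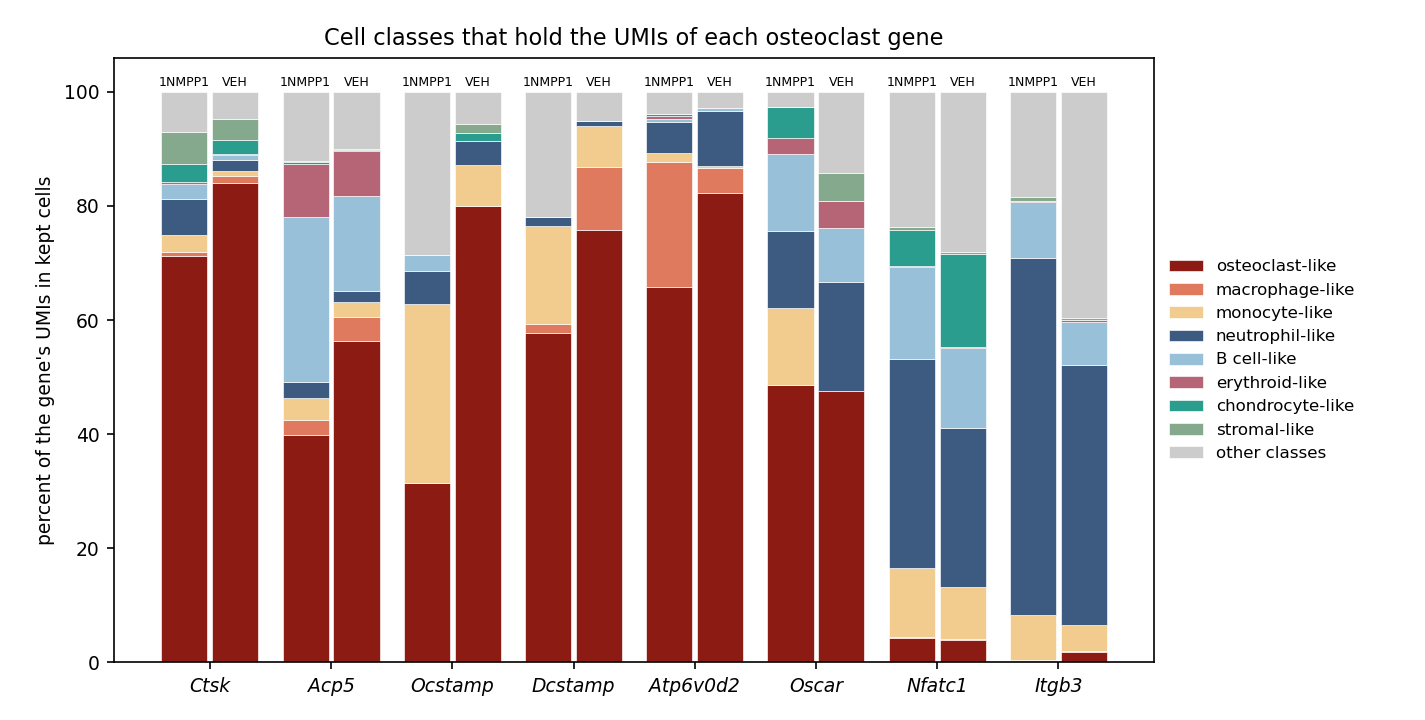
Percent of the UMIs of each osteoclast gene in kept cells that lay in each cell class, 1NMPP1 left and VEH right of each pair; Calcr, with 3 UMIs in each library, is left out. Osteoclast-like cells (dark red) hold most of the Ctsk and Atp6v0d2 UMIs in both libraries and under 5% of those of Nfatc1 and Itgb3.

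After the osteoclast-like cells, Ctsk was highest in stromal-like cells among the named classes. Stromal-like cells, 18 in 1NMPP1 and 20 in VEH, had 166 CPM [130 to 209] in 1NMPP1 and 288 CPM [236 to 347] in VEH. Osteoblast-like cells, 16 in 1NMPP1 and 7 in VEH, had 73.3 CPM in 1NMPP1 and 134 CPM in VEH, an unnamed cluster led by Prg4 and Dcn 85.9 CPM in 1NMPP1 and 92.2 CPM in VEH, and chondrocyte-like cells 28.0 CPM in 1NMPP1 and 33.5 CPM in VEH. Of these classes of connective tissue only the stromal-like cells had intervals of the 2 libraries that do not overlap, and none reached 30 cells in both libraries. Macrophage-like cells had 14.6 CPM in 1NMPP1 and 75.7 CPM in VEH, where 26 of the 37 UMIs lay in 1 cell. Ctsk in the other large blood classes was low: monocyte-like cells had 2.24 CPM in 1NMPP1 and 2.21 CPM in VEH, against 1.44 CPM in 1NMPP1 and 1.69 CPM in VEH in B cell-like cells, which are not known to make cathepsin K. Ctsk had a UMI in 3.48% of monocyte-like cells in 1NMPP1 and 3.12% in VEH (median depths of 14444.5 UMIs in 1NMPP1 and 12069.5 in VEH), and in 1.46% of B cell-like cells in 1NMPP1 and 1.38% in VEH (median depths of 6747.5 UMIs in 1NMPP1 and 5535 in VEH). With every cell thinned to 1000 UMIs the shares were 0.294% in 1NMPP1 and 0.256% in VEH for monocyte-like cells, beside 0.179% in 1NMPP1 and 0.216% in VEH for B cell-like cells, each resting on 2 to 4 cells, so no order was read.

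Acp5 was spread wider. Macrophage-like cells had 135 CPM [104 to 172] in 1NMPP1 and 266 CPM [222 to 316] in VEH. T cell-like cells had 92.6 CPM [73.9 to 114] in 1NMPP1 and 108 CPM [85.6 to 135] in VEH, erythroid-like cells 100 CPM [87.5 to 114] in 1NMPP1 and 79.5 CPM [69.7 to 90.2] in VEH, and B cell-like cells 30.8 CPM in 1NMPP1 and 33.5 CPM in VEH. B cell-like cells, which were 21.5% of kept cells in 1NMPP1 and 21.7% in VEH, held 28.8% of all Acp5 UMIs in 1NMPP1 and 16.8% in VEH. Within the erythroid-like class all Acp5 UMIs, 230 in 1NMPP1 and 238 in VEH, lay in the cluster led by Slc25a21 and Sox6, and the cluster led by Alas2 had 0 in both. A count of 0 there allows up to 9.60 CPM in 1NMPP1 and 13.1 CPM in VEH by the exact interval, below the 120 CPM in 1NMPP1 and 87.7 CPM in VEH of the first cluster. The erythroid-like ratio of 0.33 [0.06 to 0.60] turned to -0.38 with each cell weighed alike and to -1.20 after thinning to 1000 UMIs. Neutrophil-like cells were lowest among the large classes, with 1.59 CPM in 1NMPP1 and 1.70 CPM in VEH.

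Nfatc1, also a factor of lymphocytes, was high in the unnamed cluster led by Prg4 and Dcn (500 CPM in 1NMPP1 and 441 CPM in VEH), in chondrocyte-like cells (283 CPM in 1NMPP1 and 371 CPM in VEH), NK cell-like cells (261 CPM [230 to 295] in 1NMPP1 and 327 CPM [282 to 377] in VEH) and T cell-like cells (201 CPM in 1NMPP1 and 196 CPM in VEH). Monocyte-like (42.1 CPM in 1NMPP1 and 41.1 CPM in VEH), B cell-like (42.7 CPM in 1NMPP1 and 46.3 CPM in VEH) and macrophage-like cells (37.5 CPM in 1NMPP1 and 30.7 CPM in VEH) did not differ beyond their intervals. Erythroid-like cells were lowest, at 4.78 CPM in 1NMPP1 and 3.34 CPM in VEH. Itgb3 was highest in megakaryocyte-like cells, where the integrin is the fibrinogen receptor of platelets, with 70.2 CPM in 1NMPP1 and 480 CPM in VEH. T cell-like cells had 46.8 CPM [33.9 to 63.1] in 1NMPP1 and 13.7 CPM [6.56 to 25.2] in VEH, and plasmacytoid dendritic-like cells 42.8 CPM in 1NMPP1 and 41.1 CPM in VEH. The neutrophil-like cells, at 22.9 CPM in 1NMPP1 and 20.4 CPM in VEH, held 62.7% of its UMIs in 1NMPP1 and 45.6% in VEH.

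Ocstamp, Dcstamp and Oscar were rare outside the osteoclast-like cells. Conventional dendritic-like cells had 8 UMIs of Ocstamp in 1NMPP1 and 4 in VEH, and 4 UMIs of Dcstamp in 1NMPP1 and 3 in VEH, and monocyte-like cells had 11 UMIs of Ocstamp in 1NMPP1 and 5 in VEH, and 11 of Dcstamp in 1NMPP1 and 7 in VEH. Stem and progenitor-like cells, 40 in 1NMPP1 and 41 in VEH, held 8 UMIs of Dcstamp in 3 cells in 1NMPP1 and 0 in VEH, which allows up to 3.21 CPM there by the exact interval. Oscar had at most 5 UMIs in any other class of either library, and macrophage-like cells had 0 of Ocstamp and 0 of Oscar in both. B cell-like cells, set beside these as a background, had 1 UMI of Ocstamp in 1NMPP1 and 0 in VEH, and 0 of Dcstamp in both.

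**Figure D4:**
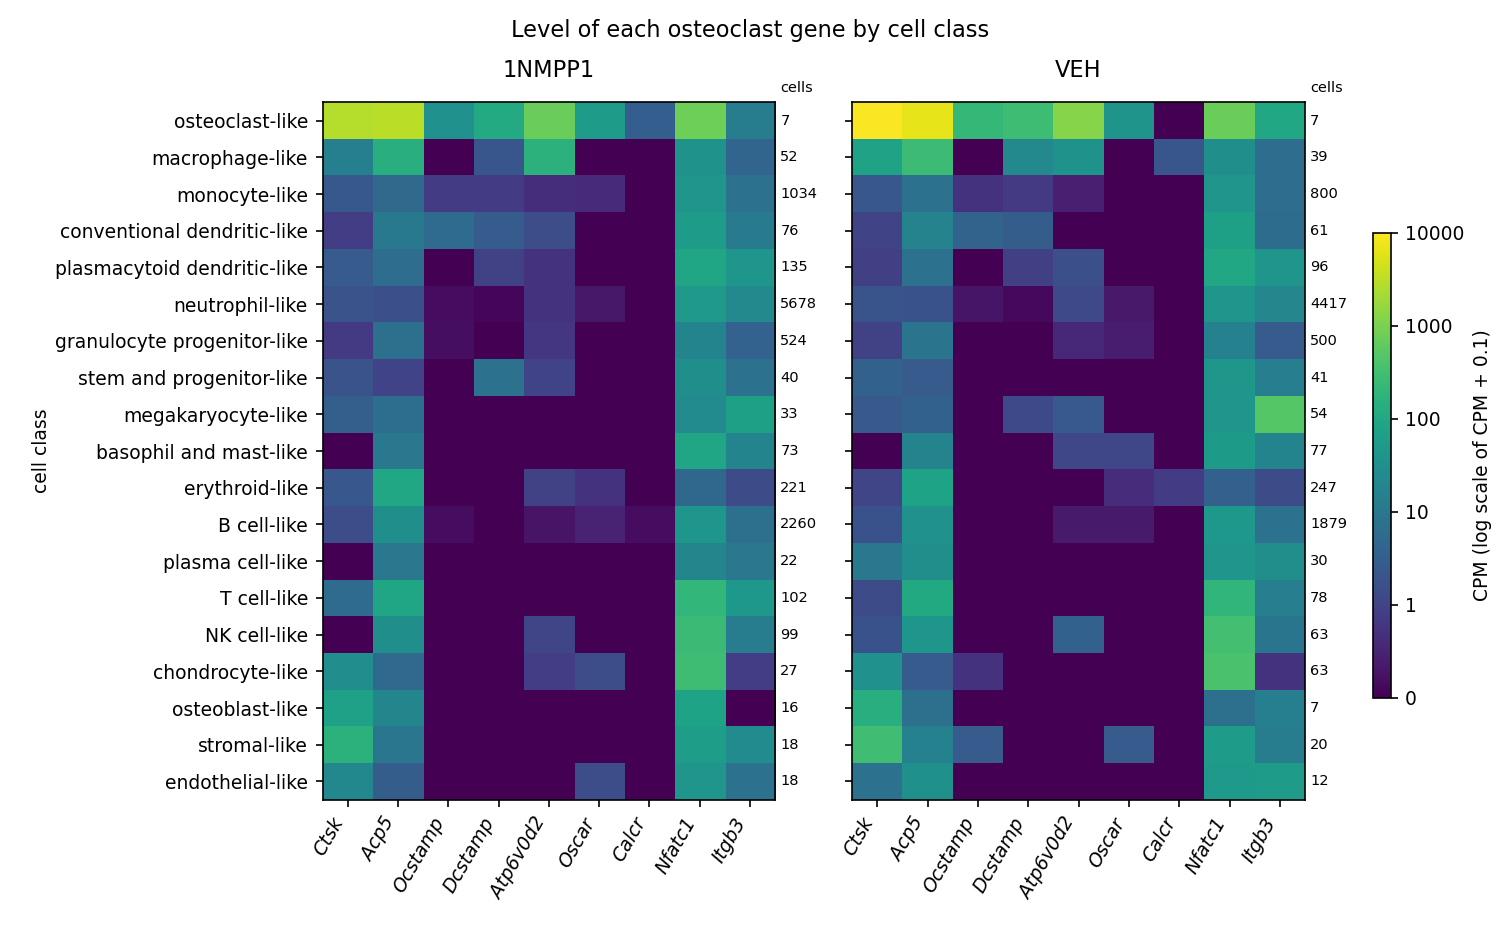
Level of each osteoclast gene (CPM, log colour scale) in each named cell class, 1NMPP1 left and VEH right, with the number of cells beside each row. The osteoclast-like row is brightest for Ctsk, Acp5, Ocstamp, Dcstamp, Atp6v0d2, Oscar and Nfatc1 in both panels, and Itgb3 is brightest in megakaryocyte-like cells.

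Macrophage-like cells, 52 in 1NMPP1 and 39 in VEH, held Ctsk and Atp6v0d2 at levels that differed between the libraries in opposite directions. Ratios were read for the 4 members that reached 20 UMIs there. Ctsk had 7 UMIs in 1NMPP1 and 37 in VEH, or 14.6 CPM in 1NMPP1 and 75.7 CPM in VEH (log2 ratio -2.30 [-3.79 to -1.19]). Acp5 had 65 UMIs in 1NMPP1 and 130 in VEH (log2 ratio -0.97 [-1.43 to -0.54]). Atp6v0d2 went the other way, with 78 UMIs in 1NMPP1 and 17 in VEH (162 CPM in 1NMPP1 and 34.8 CPM in VEH, log2 ratio 2.19 [1.45 to 3.07]), and Nfatc1, with 18 UMIs in 1NMPP1 and 15 in VEH, was at 0.28 [-0.78 to 1.38]. Past a fold of 2 were 2 of the 4 members read, 1 in each direction, where 9.93% of the 6414 genes read in the class were past that fold. The median of the 4 was -0.35, beside -0.02 for all genes of the class. Single barcodes carried much of this. A VEH cell with 5 members held 26 of the 37 Ctsk UMIs, and without it Ctsk was at -0.74 [-2.38 to 0.73]. With each cell weighed alike Ctsk turned to 1.99, while Acp5 without its richest barcode was at -0.75 [-1.23 to -0.29] and Atp6v0d2 without its own at 1.71 [0.92 to 2.62].

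Dcstamp was below the minimum, with 1 UMI in 1NMPP1 and 11 in VEH, 10 of them in that same VEH cell. The Atp6v0d2 difference lay mostly in 1 of the 4 macrophage-like clusters. The cluster led by Mmp12, C1qb and Lpl, with 13 cells in 1NMPP1 and 5 in VEH, had 74 of the 78 Atp6v0d2 UMIs in 1NMPP1 and 15 of the 17 in VEH, a level of 431 CPM [339 to 542] in 1NMPP1 and 119 CPM [66.6 to 196] in VEH. All 15 of these VEH UMIs lay in the 1 VEH cell with 5 members, and without the barcodes of at least 5 members the ratio of Atp6v0d2 in the class was 4.85. The ratio in the class was 1.25 with each cell weighed alike. Under a mitochondrial limit of 10% it was 0.24, but there the osteoclast-like cells that passed the limit fell in with the macrophage-like ones. The other clusters, led by C1qa or C1qb, had 0 to 3 UMIs of Atp6v0d2 each. Acp5 was lower in 1NMPP1 in all 4 clusters, from 88.9 CPM in 1NMPP1 and 115 CPM in VEH to 226 CPM in 1NMPP1 and 526 CPM in VEH, and the intervals of the libraries did not overlap in 2 of them. Of the cells with a sex call, 6 were male and 18 female in 1NMPP1, against 14 male and 6 female in VEH. Within male-called cells Acp5 was at -1.85 [-3.64 to -0.69] and Atp6v0d2 at 3.60 [2.76 to 4.58], and within female-called cells Acp5 was at -0.91 [-1.77 to 0.01]. Counting the osteoclast-like cells as macrophage-like turned Atp6v0d2 to -0.24, and keeping only cells with at least 500 genes, where the osteoclast-like cells fell in with the macrophage-like ones, turned it to -0.15. With each library clustered on its own, where VEH osteoclast-like cells fell in with the macrophage-like ones, it was -1.37.

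Monocyte-like cells, 1034 in 1NMPP1 and 800 in VEH, had levels of Ctsk, Nfatc1 and Itgb3 within counting error of each other in the 2 libraries, and the interval of Acp5 came close to 0. Ctsk was at a log2 ratio of 0.01 [-0.74 to 0.80], Nfatc1, with 734 UMIs in 1NMPP1 and 466 in VEH, at 0.03 [-0.14 to 0.20], Itgb3 at 0.29 [-0.14 to 0.75] and Acp5, with 93 UMIs in 1NMPP1 and 83 in VEH, at -0.46 [-0.90 to -0.01]. Without the barcode richest in Acp5, with 4 UMIs, that ratio was -0.39 [-0.84 to 0.06], and without doublet removal -0.14. None of the 4 members read was past a fold of 2, where 2.94% of the 12695 genes of the class were, and their median was 0.02 beside -0.02 for all genes. Atp6v0d2, with 6 UMIs in 1NMPP1 and 2 in VEH, and Oscar, with 5 in 1NMPP1 and 0 in VEH, were too rare for a ratio. Granulocyte progenitor-like cells had 0 of 4 members past that fold (background 2.94%), with Acp5 at -0.24 [-0.62 to 0.13] and Itgb3 at 0.48 [-0.12 to 1.11]. Stem and progenitor-like cells had 0 of 2 (background 4.93%), with Nfatc1 at -0.52 [-1.20 to 0.13].

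Elsewhere members passed a fold of 2 in 3 more classes, and each case had a limit. In megakaryocyte-like cells Itgb3, with 22 UMIs in 1NMPP1 and 409 in VEH, was at -2.74 [-3.46 to -2.16] (1 of 2 members read, background 16.4%), but 288 of the VEH UMIs came from 1 barcode of 295352 UMIs, and without it the ratio was -1.61 [-2.36 to -0.97]. With each cell weighed alike it turned to 1.57, after thinning to 1.72, and in female-called cells to 1.96. In T cell-like cells Itgb3, with 43 UMIs in 1NMPP1 and 10 in VEH, was at 1.72 [0.76 to 2.93] (1 of 3, background 6.99%), and turned to -0.04 under a mitochondrial limit of 10%, to -0.39 at a minimum of 500 genes and to -0.11 with the members among the clustering genes. In neutrophil-like cells Atp6v0d2, with 19 UMIs in 1NMPP1 and 38 in VEH, was at -1.40 [-2.30 to -0.59] (1 of 5, background 3.26%), but 25 of the VEH UMIs lay in the 1 barcode with 6 members described above, and without it the ratio was 0.11 [-0.97 to 1.27]. Nfatc1 in neutrophil-like cells, which had the narrowest interval, was at 0.24 [0.14 to 0.33], beside 0.05 for all genes of the class, and at 0.28 in the cells called male, 0.36 in those called female and 0.11 with each cell weighed alike. In the other classes no member read was past the fold: 0 of 4 in B cell-like cells (background 2.98%), 0 of 2 in NK cell-like (4.65%), 0 of 3 in basophil and mast-like (6.39%), 0 of 3 in conventional dendritic-like (5.21%), 0 of 3 in plasmacytoid dendritic-like (3.97%) and 0 of 2 in erythroid-like cells (10.3%).

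**Figure D5:**
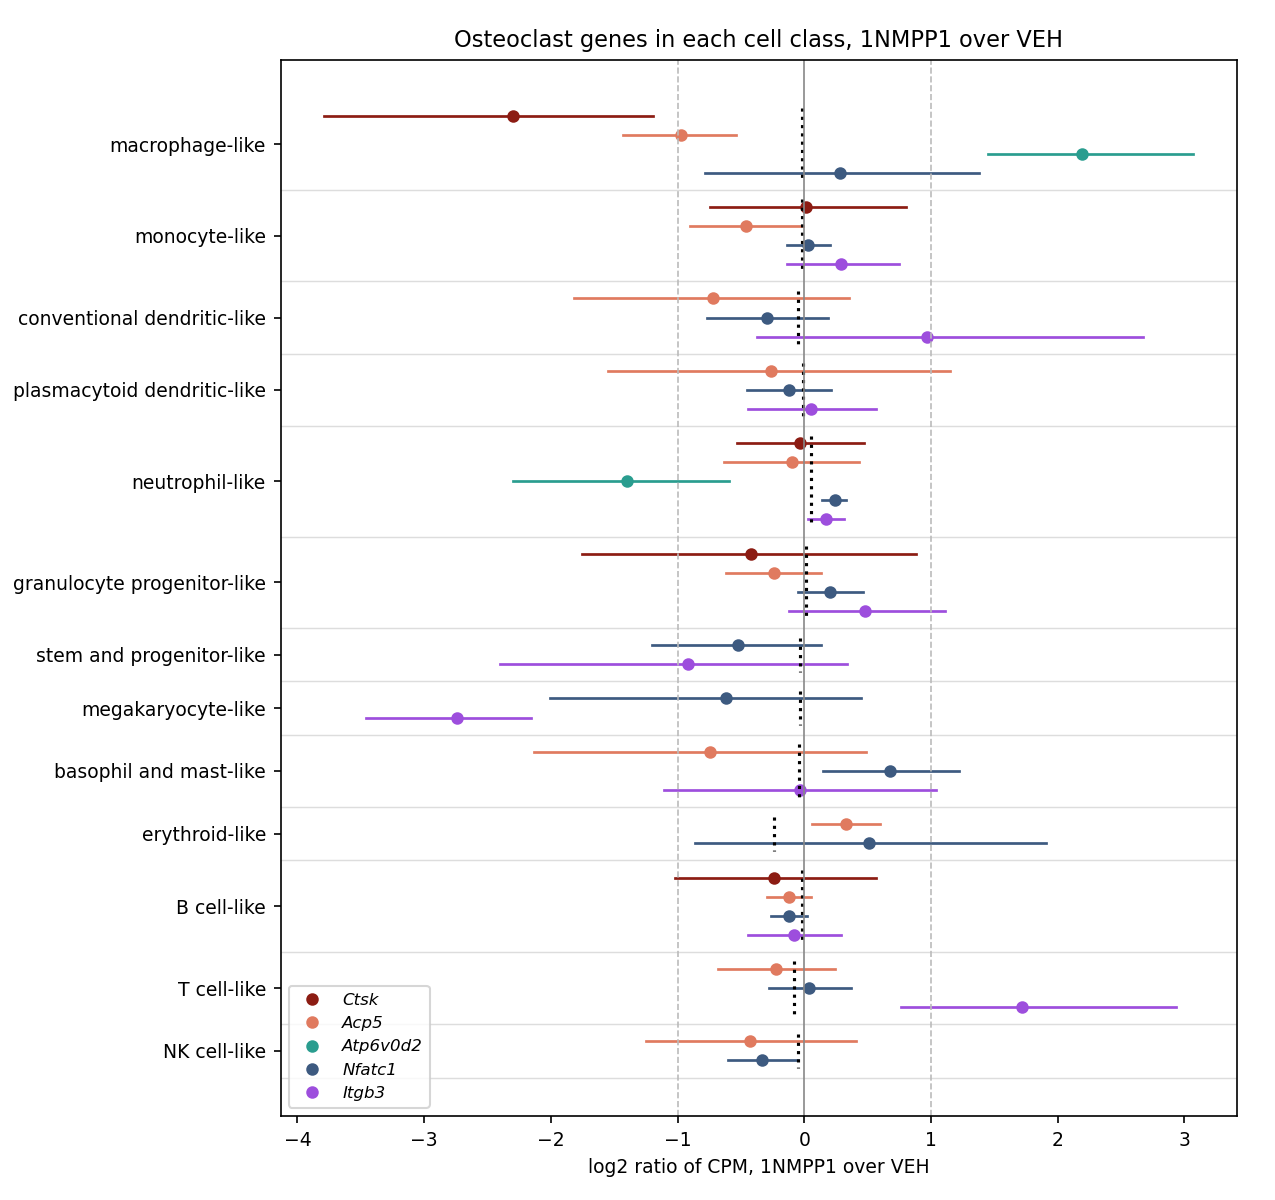
Log2 ratio of CPM, 1NMPP1 over VEH, of each osteoclast gene with at least 20 UMIs in each class of at least 30 cells per library; points are ratios, bars their 95% counting intervals, dashed lines a fold of 2 and dotted lines the median of all genes of the class. Most points lie within a fold of 2, with Ctsk and Atp6v0d2 in macrophage-like cells on opposite sides, at -2.30 and 2.19.

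The genes around the members in the osteoclast pathway were described in 7 lists. In macrophage-like cells, where 4.33% of all genes were past a fold of 2 upward and 5.60% downward, the list of matrix breakdown genes had 3 of 7 past it upward and 0 downward, with a median of 0.85. Spp1, the bone matrix protein osteopontin, was at 3190 CPM in 1NMPP1 and 403 CPM in VEH (log2 ratio 2.98), Gpnmb, a membrane glycoprotein of osteoclasts and lipid-laden macrophages, at 772 CPM in 1NMPP1 and 237 CPM in VEH (1.70), and Ctsl, a lysosomal protease, at 1160 CPM in 1NMPP1 and 364 CPM in VEH (1.67). The macrophage-like cluster led by Mmp12, C1qb and Lpl had 13 of the 52 cells in 1NMPP1 and 5 of the 39 in VEH. No value by cluster or without single barcodes is given for these lists, so cluster mix and level cannot be told apart. Of the 11 transcription factor genes read, 10 were lower in 1NMPP1, with a median of -0.62, but 1 passed the fold, Nfkb1, the p50 subunit of NF-kappaB, with 377 CPM in 1NMPP1 and 813 CPM in VEH (-1.11). Mitf was at -0.66 and Jdp2, a partner of AP-1, at -0.82. Immunoreceptor genes had 1 of 12 past the fold upward (Sirpb1c, 1.16 [-0.14 to 2.74]) and 1 downward (Plcg2, -1.06), acidification genes 0 of 17 upward and 1 downward (Ostm1, -1.12), and the ligands and receptors (2 read), repressors of osteoclast formation (5 read) and fusion and adhesion genes (10 read) none, with medians between 0.02 and 0.22 for these 5 lists. In monocyte-like cells no gene of the 7 lists was past the fold, where 1.58% of all genes were upward and 1.35% downward, and the medians lay between -0.08 and -0.01.

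In the osteoclast-like cells several regulators of these lists were within counting error of each other in the 2 libraries. Jdp2 had 1040 CPM in 1NMPP1 and 1160 CPM in VEH, the RANKL receptor gene Tnfrsf11a 229 CPM in 1NMPP1 and 240 CPM in VEH, the kinase gene Src 131 CPM in 1NMPP1 and 141 CPM in VEH, and Spi1, which encodes PU.1, 620 CPM in 1NMPP1 and 681 CPM in VEH. Some genes of acid secretion and matrix breakdown were lower in 1NMPP1, as Atp6v0d2 and Ctsk were: the pump subunit Atp6v0c had 1830 CPM in 1NMPP1 and 4730 CPM in VEH, the carbonic anhydrase Car2 88.5 CPM in 1NMPP1 and 205 CPM in VEH, and Mmp9 1210 CPM in 1NMPP1 and 2480 CPM in VEH, a gelatinase that neutrophil-like cells also had at 1980 CPM in 1NMPP1 and 1850 CPM in VEH. Fos, a subunit of AP-1, had 1790 CPM in 1NMPP1 and 1010 CPM in VEH. These examples were chosen after their values were seen, and each sum rests on 7 cells a library. Tnfsf11, which encodes RANKL, had 0 UMIs in the macrophage-like and osteoclast-like cells of both libraries.

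The genes whose levels ran most like those of the members were sought over 26 points, the 13 classes of at least 30 cells in each library, by Pearson's r of log2(CPM + 1) among 12897 genes. These points share libraries and depth, and the correlations are descriptions. The closest gene was Itpkb for Nfatc1 (r = 0.960), Slc11a2 for Acp5 (0.857), Ubd for Atp6v0d2 (0.935) and F2rl2, a thrombin receptor of platelets, for Itgb3 (0.798). These points leave the osteoclast-like cells out, and for Ocstamp, Dcstamp and Oscar, with few UMIs in them, no gene is given. With their 2 points added, 28 in all, the closest gene was Slc9b2 for Ocstamp (0.923) and Oscar (0.955), Gask1b for Dcstamp (0.946) and Ttc23l for Ctsk (0.95) and Atp6v0d2 (0.934), whereas for Nfatc1 it was Smurf1 (0.912) and for Itgb3 Sec23a (0.698). The likeness of Ocstamp, Dcstamp and Oscar there rests on the 2 added points, where their levels are highest.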

How the data were processed

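UMI counts for each gene and barcode were deposited by the authors as raw matrices, which per the file headers come from cellranger 7.2.0; the submitters' processing notes name mm10, and no source used here gives the kit chemistry or strand setting. Of the 4 libraries of the series, the 2 of the growth plate were used, and the ganglion libraries, the targeted gene and a few genes that the naming rule reached are not reported here. The 9 members, the marker sets and the lists were chosen with earlier results of these data known.

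Cells needed 200 or more genes and a mitochondrial share of 20% or less, and the highest Scrublet scores were removed at 0.8% per 1000 barcodes (1115 in 1NMPP1 and 731 in VEH), since the threshold that Scrublet sets itself marked 579 in 1NMPP1 and 1 in VEH. Both libraries were clustered together without the members (2000 variable genes, 30 principal components, 20 neighbours, Leiden resolution 1) and clusters were named from 20 marker sets, with a score of at least 1 and at least 3 detected markers, by a scoring rule settled after clusters had been seen. UMIs were summed per class and library and scaled to CPM, with exact Poisson intervals. Shares have Clopper-Pearson intervals, ratios exact conditional intervals, and log2 ratios 0.5 UMI added to each sum. Genes were read at 20 UMIs in classes of 30 cells in both libraries. All members are named, with pathway genes past a fold of 2, the gene closest to each member (minimum 50 UMIs for the member, 100 for the gene) and the 10 genes highest in cells of several members. PCR duplicates are removed by UMIs, and intervals cover counting error only. The code was tested on simulated data. Python 3.11.15 was run with numpy 2.4.6, matplotlib 3.10.9, pandas 2.3.3, leidenalg 0.10.2, scanpy 1.11.5, scipy 1.17.1, igraph 0.11.9 and scikit-learn 1.9.0.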

Additional observations from a re-analysis of the deposited data

How the results depend on the processing

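No paired analysis was possible because each group is 1 library. The median of the members in macrophage-like cells, -0.35, moved to -4.32 with each library clustered on its own, where the 7 VEH osteoclast-like cells were counted as macrophage-like and those of 1NMPP1 were not, to -1.85 in male-called cells, and to 0.61 both with each cell weighed alike and with members of at least 50 UMIs. Its other alternatives gave -1.11 to 0.34, and none could be had after thinning. The monocyte-like median, 0.02, moved to 0.68 after thinning, with 1 member left. The log2 ratio of the share of cells with at least 3 members, 0.01, moved to -1.04 after thinning, to -0.72 at 4 members, to -0.83 at 5 and to -0.72 without Nfatc1 and Itgb3. Of 484 recomputed values of single members in classes, 92 changed sign or came to 0, and 17 of these had a main interval that excluded 0. The 17 are given next. Itgb3 in T cell-like cells turned to -0.04 (mitochondrial limit 10%), -0.39 (500 genes) and -0.11 (members among the clustering genes), and in megakaryocyte-like cells to 1.72 (thinned), 1.96 (female-called) and 1.57 (weighed alike). Atp6v0d2 turned in macrophage-like cells to -0.15 (500 genes), -1.37 (libraries clustered alone) and -0.24 (osteoclast-like cells counted in), and in neutrophil-like cells to 0.47 (thinned), 0.81 (female-called), 0.02 (weighed alike) and 0.11 (without barcodes of at least 5 members, or without its richest barcode). Acp5 in erythroid-like cells turned to -1.20 (thinned) and -0.38 (weighed alike), and Ctsk in macrophage-like cells to 1.99 (weighed alike). Except where stated, the cause was not tested. The settings on barcodes of at least 5 members, shared or richest barcodes, and osteoclast-like cells counted in were chosen after seeing the data. The osteoclast-like cells did not form a cluster of their own at a mitochondrial limit of 10%, at 500 genes or in VEH alone, and numbered 18 in 1NMPP1 and 9 in VEH without doublet removal. With 7 cells a library, a gene at a few UMIs per cell is at the limit of what this depth shows.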
